A study of Bos taurus with 20 samples.

Results

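The genes described here are 10 genes of the T cell receptor complex and its first signalling steps, namely CD3D, CD3E, CD3G, CD247, CD2, CD5, CD6, CD7, LCK and ZAP70. They were chosen by symbol and matched to Entrez identifiers with the NCBI cattle gene table, and all 10 were found among the 37063 genes of the count tables. Whole blood had been drawn into RNA-stabilizing Tempus tubes at day 63 of gestation from 20 recipient cows. Each carried a single female fetus from an in vitro blastocyst made with an oocyte of a beef dam and sex-sorted semen, and 1 library per cow was sequenced. The recipients are dairy cows in one passage of the study's methods and Angus in another. The weight of the calf at birth (BW), from 30 to 72.5 kg with a median of 44 kg, was the only label that differed between them. All cows were pregnant. The study's recipients varied in age and parity, but the labels tie neither to a cow and name no sequencing batch. Each cow is named here by the BW of its calf.

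T cells recognize antigen through a receptor whose variable chains have no signalling tail of their own. The signal is passed by the CD3 delta, epsilon and gamma chains (CD3D, CD3E and CD3G) and by the zeta chain (CD247), which carry tyrosine motifs in their cytoplasmic tails. LCK phosphorylates these motifs, ZAP70 docks on them and phosphorylates the adaptors LAT and LCP2, and CD2, CD5, CD6 and CD7 are surface receptors that tune adhesion or signal strength. Ruminant blood is known for its many gamma delta T cells, many of which carry receptors of the WC1 family. CD2, CD7, CD247, LCK and ZAP70 are also used by natural killer (NK) cells.

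Total counts were between 24632077 and 39892111 per cow, with a median of 33412740, and all 190 pairs of libraries differed by more than sampling noise (lowest chi-square per degree of freedom 12.2). Markers of blood leukocytes were present: of the 14 T cell markers 14 were matched, and the 11 that are not among the 10 genes summed to 1196 to 1554 CPM. The 12 neutrophil markers summed to 3629 to 6263 CPM, the 12 B cell markers to 1272 to 2345 CPM and the 12 NK cell markers that passed the filter to 228 to 434 CPM. Of the 14 NK cell markers matched, 1 had no count in any cow, and so had 2 of the 4 eosinophil markers matched. In whole blood, fewer cells of a type and less RNA per cell cannot be told apart. CPM are read counts scaled to a common library size with TMM factors, and because lengths of the gene models were not available, levels are not compared between genes.

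All 10 genes had well over the 10 counts per cow set as the minimum, the lowest being the 255 counts of CD7 in 1 cow. Among the CD3 chains, CD3E (Entrez 281054) had a lowest level of 165 CPM, a median of 218 CPM and a highest of 285 CPM over the 20 cows. CD3D (Entrez 281053) had 50.2, 61.7 and 91.3 CPM, in the same order. CD3G (Entrez 281055) had 59.5, 79.8 and 108 CPM. For each of these 3 chains the cows of the 47.4 and 32 kg calves were the highest, and those of the 43, 36 and 50 or 72.5 kg calves were the lowest. CD247 (Entrez 281056), the zeta chain, had 157, 183 and 252 CPM, again with the cows of the 47.4 and 32 kg calves on top. The high cows therefore carried a light and a middling calf.

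Among the kinases, LCK (Entrez 508890) had a lowest level of 177 CPM, a median of 194 CPM and a highest of 261 CPM. ZAP70 (Entrez 504509) had 283, 333 and 432 CPM, and here the cow of the 46 kg calf stood above those of the 47.4 and 32 kg calves. The adhesion receptor CD2 (Entrez 497022) had 85.1, 110.4 and 131 CPM. CD6 (Entrez 282881), a scavenger receptor family member that binds ALCAM, had 59.2, 76.2 and 116 CPM. Its highest value was 1.95 times its lowest, the widest ratio among the 10 genes, while CD5 had the narrowest, 1.47. In all, 7 of the 10 genes had their 2 highest values in the cows of the 47.4 and 32 kg calves, namely CD3D, CD3E, CD3G, CD247, CD2, CD6 and LCK.

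CD5 and CD7 had other orders. CD5 (Entrez 280745), a scavenger receptor family member that dampens receptor signals, had 100.4, 119 and 147 CPM, and its second highest cow was that of the 35 kg calf. CD7 (Entrez 510073), an immunoglobulin superfamily receptor of T and NK cells, had 8.50, 11.99 and 13.9 CPM. It was highest in the cows of the 30 and 46 kg calves and lowest in the cow of the 72.5 kg calf. CD5 too was lowest in the cow of the 72.5 kg calf.

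**Figure D1:**
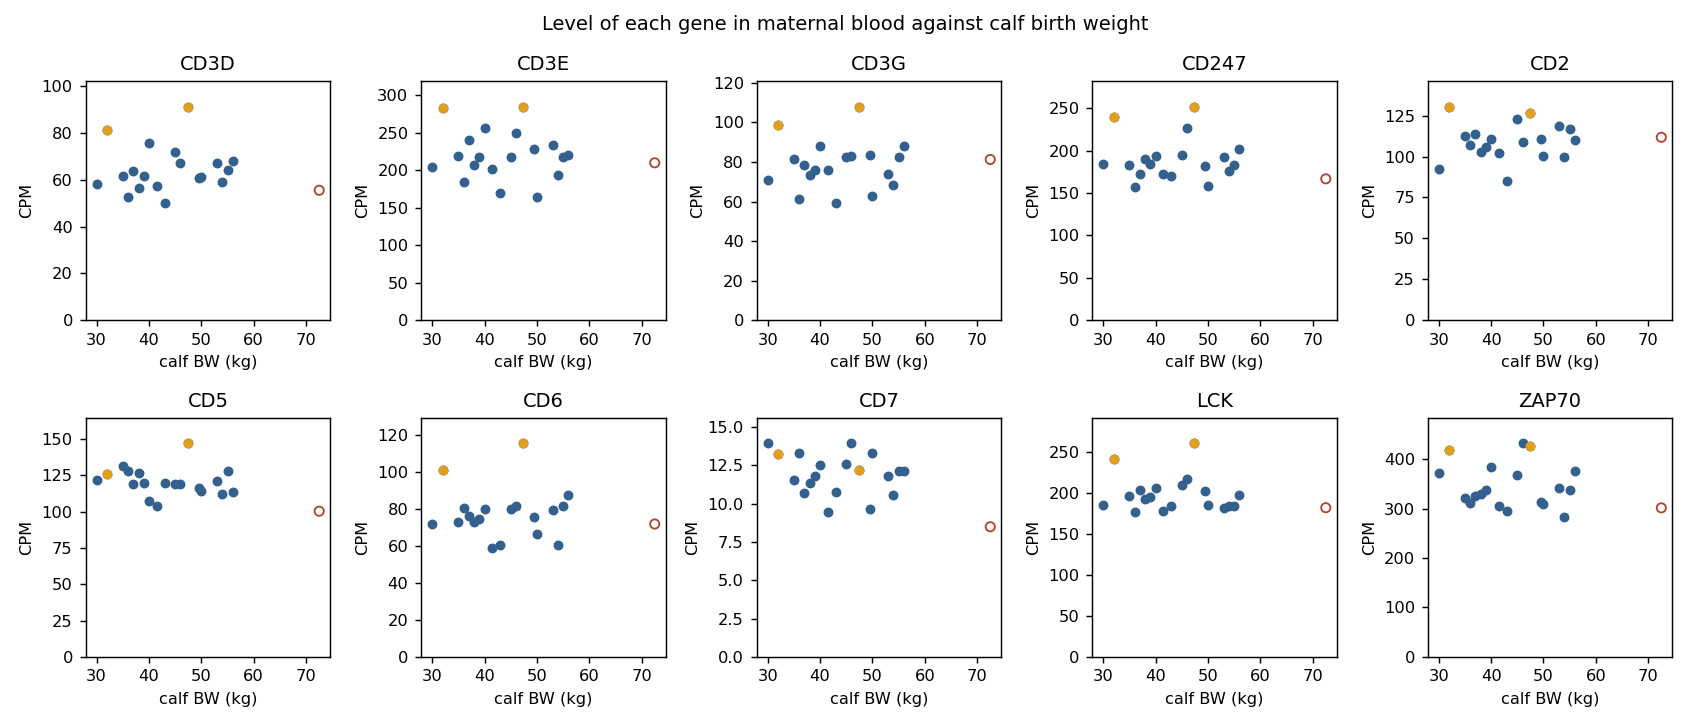
Level of each gene in CPM (TMM-scaled, linear axis from 0) against calf BW in kg, 1 point per cow. Filled orange points are the cows of the 32 and 47.4 kg calves, which were the 2 highest for 7 of the 10 genes, and the open red point is the cow of the 72.5 kg calf, which was the lowest for CD5 and CD7.

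Between cows the genes were moderately variable. The coefficient of variation (CV) was 17.1% for CD6, 15.4% for CD3D, 15.03% for CD3G, 14.5% for CD3E, 13.3% for CD247 and 12.99% for ZAP70. It was 12.7% for CD7, 10.8% for LCK, 9.98% for CD2 and 8.69% for CD5. Counting error alone would give a CV of 5.15% for CD7 and of at most 2.22% for the other 9 genes, so most of this spread lay between cows or libraries. Among genes with a mean level within 2-fold of its own, the CV of CD6 was higher than that of 88.6%, and that of CD3E higher than that of 85.7%. This share was 82.0% for CD247, 81.7% for ZAP70, 71.3% for LCK, 65.7% for CD2, 54.1% for CD5 and 43.2% for CD7. The CD3 chains, CD247, CD6, ZAP70, LCK and CD2 thus varied more than most genes of a like level. CD5 and CD7 lay near the middle.

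The 10 genes were then compared with each other over the 20 cows by the correlation of their log2 CPM. The genes share libraries, so these correlations are given as descriptions. Over the 45 pairs, Pearson's r had a median of 0.77 and lay between 0.03 and 0.90. The 4 receptor chains had r between 0.81 and 0.90 over 6 pairs. CD3E and CD3G had an r of 0.90 (Spearman's rho 0.87), and each was the second of 16268 genes most correlated with the other. CD247 and ZAP70, the zeta chain and the kinase that docks on it, had an r of 0.88 (rho 0.90), and each was the first of 16268 genes for the other. CD247 was also the gene most correlated with LCK (r of 0.87).

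Without CD5 and CD7, the 28 pairs of the other 8 genes had a median r of 0.80 and a lowest of 0.54, which was that of CD2 with ZAP70. CD2 followed the CD3 chains (r of 0.78 with CD3D, 0.78 with CD3E and 0.79 with CD3G) more closely than CD247 (0.59), LCK (0.62) or ZAP70 (0.54), although the difference between these values was not tested. For CD3D, 7 of the other 9 genes were among the 100 genes most correlated with it. The count was 7 for CD3E, CD3G and CD6, 6 for CD247, LCK and ZAP70 and 4 for CD2. The median r of each of these genes with all genes was between 0.0025 and 0.013.

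The 17 pairs with CD5 or CD7 had a median r of 0.37. No other gene of the 10 was among the 100 most correlated with CD5 or with CD7. The r of CD7 was 0.63 with ZAP70 (rho 0.65), 0.50 with CD5, 0.15 with CD3E and 0.03 with CD3G, and CD3G was the 7591st of 16268 genes for it. CD5 had its highest r with CD6 (0.60, rho 0.42), the other scavenger receptor, which is 1 of the genes next to it on the chromosome in the ARS-UCD2.0 gene table. In the same table CD3E, CD3D and CD3G follow each other with no other protein-coding gene between them.

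**Figure D2:**
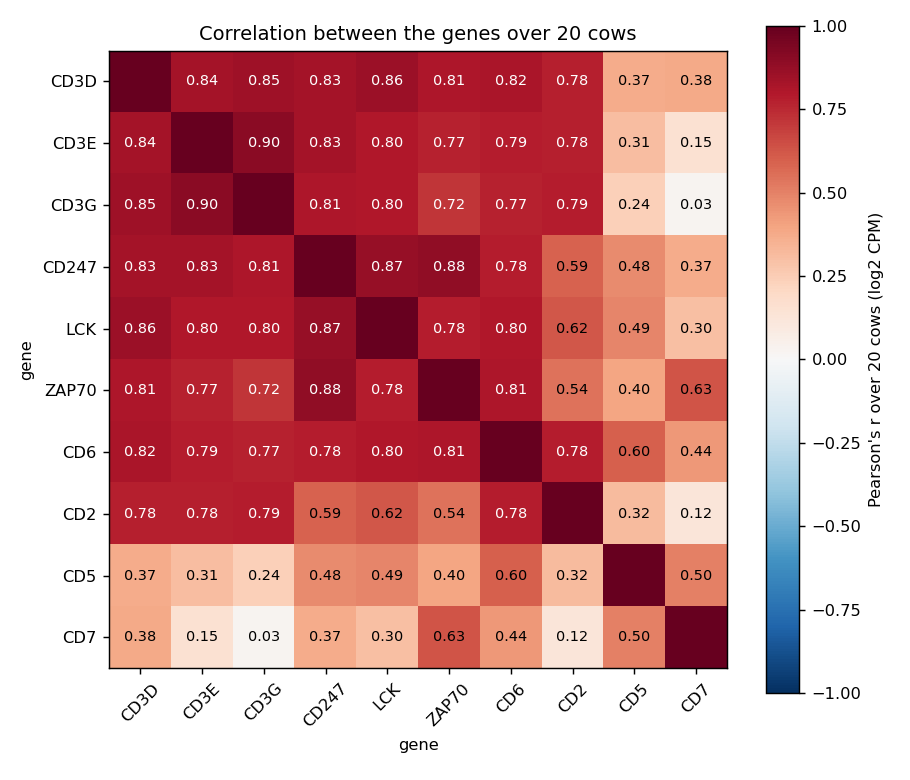
Pearson's r of log2 CPM over 20 cows for each pair of the 10 genes, from -1 (blue) to 1 (red), with the value in each cell. The block of the 4 receptor chains, LCK, ZAP70, CD6 and CD2 has values between 0.54 and 0.90, while the rows of CD5 and CD7 have values between 0.03 and 0.63.

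The cows of the 47.4 and 32 kg calves, whose mean log2 CPM of the 4 receptor chains (the CD3 mean) was 7.35 and 7.25 against a median of 6.90, carried part of these correlations. Without both, the median r of the 45 pairs was 0.57, that of the 4 chains 0.72, that of the 28 pairs without CD5 and CD7 0.66 and that of the 17 pairs with CD5 or CD7 0.13. CD3E with CD3G stayed at 0.85 and CD247 with ZAP70 at 0.83, whereas CD2 with ZAP70 was 0.33. CD7 with ZAP70 was 0.64 and CD7 with CD3G was -0.13.

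Ratios within a library do not depend on its scaling. The ratio of CD247 to CD3E counts had a lowest value of 0.717, a median of 0.853 and a highest of 1.01, and its SD on the log2 scale was 0.12, against 0.18 for CD247 and 0.21 for CD3E alone. The SD of the ratio of ZAP70 to LCK was 0.11, against 0.18 and 0.15 for the single genes. For CD2 to CD3E the SD of the ratio was 0.13. That of CD7 to CD3E was 0.26, larger than the 0.19 of CD7 or the 0.21 of CD3E. CD247 against CD3E and ZAP70 against LCK thus varied less than the single genes, and CD7 against CD3E varied more than either did alone.

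Genes outside the 10 were ranked by their correlation with the CD3 mean over the 20 cows. The highest were CD96 (r of 0.92, rho 0.89), a receptor of T and NK cells, SH2D2A (0.86), an adaptor of T cells that binds LCK, the protein kinase C gene PRKCH (0.86), BCL11B (0.86), a transcription factor of the T cell lineage, and SYN3 (0.85). Without the cows of the 47.4 and 32 kg calves these were 0.87, 0.80, 0.77, 0.75 and 0.73. The single genes had partly different neighbours. LAX1, an adaptor that restrains receptor signals, came first for CD3E (0.90), PRDM1, the transcription factor Blimp-1, first for CD247 (0.87) and TRAT1, a receptor-associated adaptor, first for LCK (0.83). TRAT1 with LCK was 0.54 without the cows of the 47.4 and 32 kg calves. ADCYAP1R1, which encodes a neuropeptide receptor, came first for CD3D (0.87), CD96 for CD3G (0.91) and SYN3 for CD6 (0.87). RORA, a nuclear receptor, came first for CD2 (0.88), followed by SLC20A1 (0.85) and the spindle checkpoint gene BUB1B (0.85).

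The neighbours of CD5 and CD7 were not genes of the receptor pathway. For CD5 the highest were JAKMIP3 (0.86), RPS3 (0.81) and RPL27A (0.80), the last 2 of them ribosomal protein genes. For CD7 they were SBF1 (0.83), REXO1 (0.82) and ESPNL (0.82). Each of these 6 genes had an r of at least 0.74 also without the cows of the 47.4 and 32 kg calves.

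Marker lists of other blood cells were set beside the 10 genes as the mean z-score of each list over the cows. The T cell list without the 10 genes had an r of 0.89 with the CD3 mean (rho 0.86), between 0.75 and 0.86 with each of the 4 chains, LCK, ZAP70, CD6 and CD2, 0.50 with CD5 and 0.29 with CD7. Singly, the 11 genes of this list had an r with the CD3 mean from 0.30 for CD28 to 0.86 for BCL11B, with a median of 0.62. The B cell list went the other way, with an r of -0.78 with the CD3 mean (rho -0.78). This r was -0.65 without the cows of the 47.4 and 32 kg calves and between -0.82 and -0.70 with each cow left out in turn. Of its 12 genes 11 had a negative r, among them CD79B (-0.89), a chain of the B cell receptor, while BLK, a kinase of the same family as LCK, had 0.46. With CD7 the B cell list had an r of -0.20 and with CD2 one of -0.80. TNFRSF21 (-0.93) was the only gene lower than CD79B among all genes. Because CPM are shares of 1 library, the part of the other cells in these values was not tested.

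The NK cell list had an r of 0.38 with the CD3 mean and 0.30 with CD7. Its 12 genes ran from -0.56 for KLRB1 to 0.76 for the cytotoxic gene PRF1, which T cells also use, and 4 of the 12 were negative. The r with the CD3 mean was -0.18 for neutrophil, -0.24 for monocyte, -0.18 for erythroid, -0.09 for platelet and 0.13 for eosinophil markers, the last of which rested on 2 genes. The list of 10 genes of cell division had an r of 0.67. Singly these genes ran from 0.15 for AURKB to 0.71 for TOP2A, with a median of 0.62 and MKI67 at 0.66. The r of the 10 T cell receptor genes with the neutrophil list lay between -0.27 and 0.12.

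**Figure D3:**
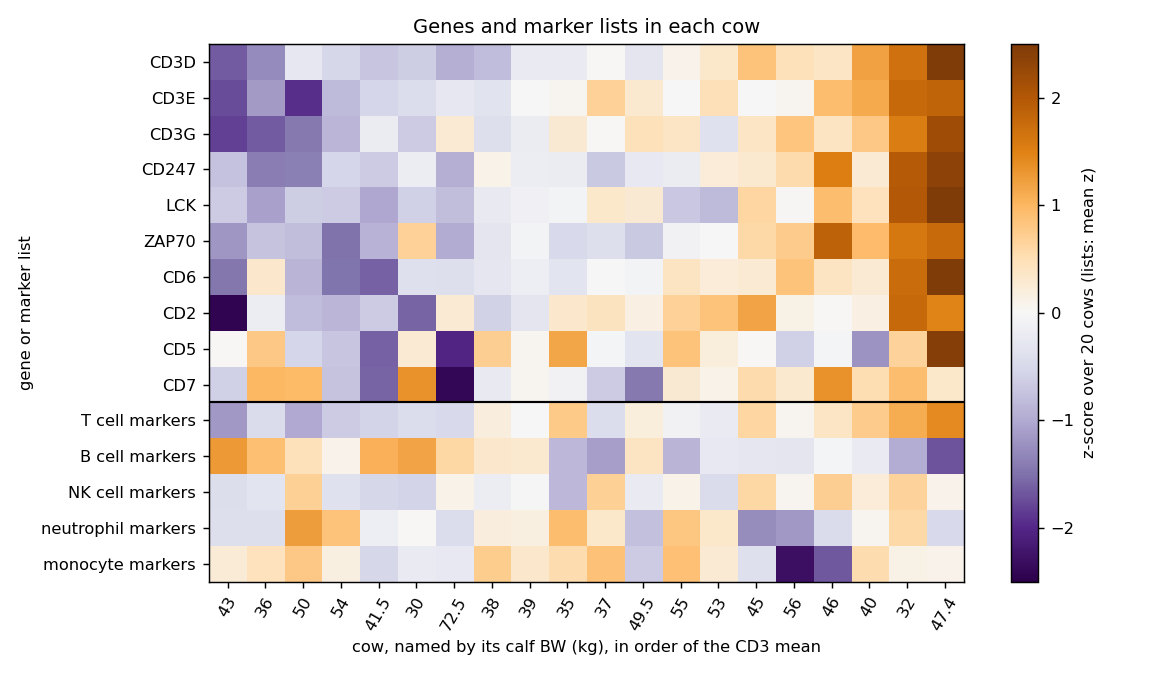
Colour scale of z-scores over the 20 cows (purple low, orange high) for the 10 genes, above the line, and for the mean z-score of 5 marker lists, below it; each column is a cow named by its calf BW in kg, in order of the CD3 mean. The cows at the right, of the 32 and 47.4 kg calves, are high in the chains, kinases, CD6 and CD2 and low in B cell markers. CD5 and CD7 follow the order less closely, although CD5 is highest in the cow of the 47.4 kg calf.

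Whether the level of these genes was associated with calf BW was tested in 19 cows, without that of the 72.5 kg calf. The study had set this calf aside as extreme in its differential expression analysis, but kept it when selecting predictors of BW. None of the 10 genes had an FDR below 0.05 with edgeR's quasi-likelihood test, with DESeq2 or with voom, and none had an unadjusted p below 0.05 with any of these 3 tools. For all genes tested, 0.0% of 16206 had an FDR below 0.05 with edgeR and 13.9% (2247 genes) an unadjusted p below 0.05. With voom these shares of the 16206 genes were 0.0% and 12.9%. DESeq2 was run on genes with any count, so its shares are over other sets of genes. By FDR its share was 1.22% (189 genes) of the 15478 genes given an FDR, and by unadjusted p 10.6% of 23087 genes. The slopes of the 10 genes on the log2 scale were between -0.0048 and 0.0021 per kg, 3 of them positive, with a median of -0.0017. The median over all genes was -0.00072, and 46.6% of all genes were positive.

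Expressed per 10 kg of calf BW, the difference in level was -2.41% for CD3E, with a 95% confidence interval from -10.5 to 6.35% (FDR of 0.843 with edgeR). For CD3D it was 1.45% (-6.91 to 10.6%), for CD3G 0.567% (-8.02 to 9.96%) and for CD247 -0.329% (-7.46 to 7.35%). The kinases had differences of -1.87% for LCK (-7.75 to 4.38%) and -2.30% for ZAP70 (-9.13 to 5.04%). Every interval of the chains and kinases held 0, and none reached a difference of 11% per 10 kg in either direction. CD2 had 0.726% (-5.31 to 7.15%), CD6 -0.488% (-9.64 to 9.59%) and CD5 -2.02% (-6.67 to 2.87%). CD7 had the lowest p of the 10, with -3.25% (-9.64 to 3.59%, unadjusted p = 0.325 and FDR of 0.703 with edgeR), and 46.3% of all genes had a smaller one. By comparison, the middle 90% of all genes had slopes between -19.2 and 22.6% per 10 kg.

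**Figure D4:**
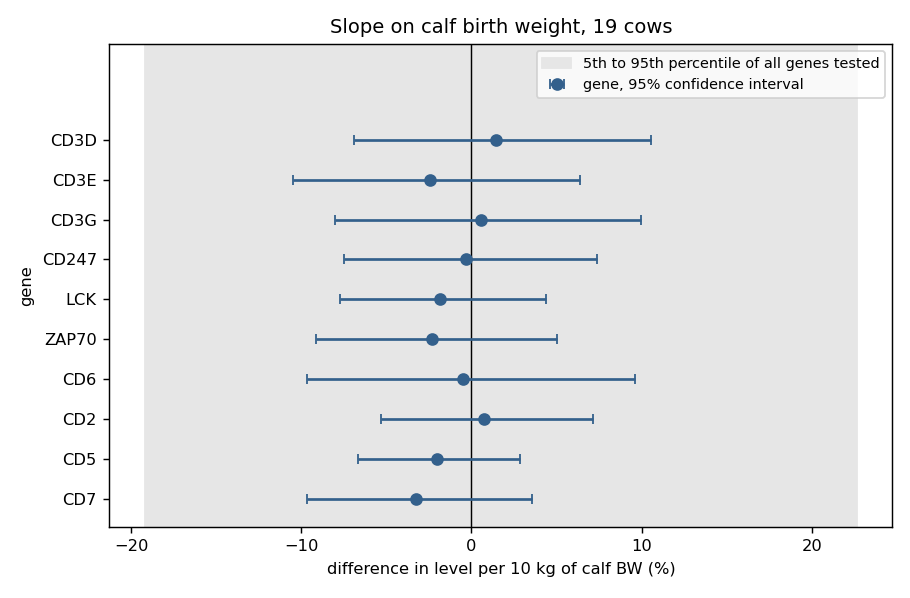
Difference in level per 10 kg of calf BW in percent (points) with its 95% confidence interval (bars) for each of the 10 genes in 19 cows, from edgeR. The grey band is the range between the 5th and 95th percentile of the point estimates of all genes tested, -19.2 to 22.6%. All 10 intervals include 0 and lie within the band.

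With the cow of the 72.5 kg calf included, CD7 was 1 gene of the 10 with an unadjusted p below 0.05. Its difference was -6.11% per 10 kg (-11.4 to -0.503%, unadjusted p = 0.0345 and FDR of 0.331 with edgeR), in a fit where 13.4% of all genes had such a p and 0.0246% (4 genes) an FDR below 0.05. The value rests on that cow, whose 8.50 CPM were the lowest, since without it the difference was -3.25%. CD7 belongs to the genes that the study selected with these cows as predictors of BW, so its direction here is not independent evidence. CD7 and ZAP70 are also among the genes the study grouped by their course over gestation, with these cows included. CD5 had -3.49% (-7.15 to 0.308%, unadjusted p = 0.0694 and FDR of 0.414 with edgeR) with all 20 cows. The ratio of CD7 to CD3E counts was lowest in the same cow (0.0405, against a median of 0.0544) and had an r of -0.26 with BW over 20 cows and -0.04 over 19.

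The other genes of the pathway were taken from 8 lists. Of 97 genes matched, 94 were tested. None had an FDR below 0.05 with edgeR and 12 (12.8%) had an unadjusted p below 0.05, a share close to the 13.9% of all genes. All 12 of these slopes were positive, where 6.78% of all genes had a positive and 7.08% a negative slope with such a p. With all 20 cows 17 genes (18.1%) had such a p, against 13.4% of all genes, and 12 of these 17 slopes were positive. The direction of these genes was noticed after their values were seen. With DESeq2 NCK2 and ALCAM had an FDR below 0.05, 2.13% of these 94 genes against 1.22% of all genes. Leaving out 1 cow brought in negative slopes. Negative ones were most frequent without the cow of the 30 kg calf (13 positive and 4 negative) or of the 47.4 kg calf (12 and 4). Next came the fit without that of the 36 kg calf (9 and 3). Without the cow of the 32 kg calf SLA2 had an FDR of 0.0477 with edgeR. Of the 26 genes named by rule from these lists, the slopes of 20 moved by more than 1.5 times with all 20 cows or with 1 cow left out.

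Among the 22 proximal kinases and adaptors tested, 9 slopes were positive and 3 genes (13.6%, beside 13.9% of all genes) had an unadjusted p below 0.05. NCK2, an adaptor that links receptors to actin, had 21.98 to 82.5 CPM with a median of 38.4 CPM. Its log2 level differed by 0.039 per kg (SE 0.011), and its FDR was 0.140 by edgeR and 0.0309 by DESeq2. LCP2, the adaptor SLP-76 that ZAP70 phosphorylates, had 783 to 972 CPM and differed by 0.0046 per kg (SE 0.0021), at an edgeR FDR of 0.345. NCK2 and LCP2 had an r of 0.20 and 0.27 with the CD3 mean. LYN, a kinase of the LCK family in B and myeloid cells, had a slope of -0.0071 (FDR of 0.460 with edgeR) and an r of -0.68 with the CD3 mean. LAT, the other adaptor that ZAP70 phosphorylates, had an r of 0.75.

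Brakes on receptor signalling had 12 positive slopes among 18 genes tested, and 5 of them had an unadjusted p below 0.05, namely PTPN22, SLA2, UBASH3B, CBL and CBLB. Their r with the CD3 mean was 0.53, 0.55, 0.30, -0.24 and 0.04, in the same order. The phosphatase PTPN22, which acts on LCK and ZAP70, had 32.2 to 57.7 CPM and differed by 0.016 per kg on the log2 scale (SE 0.0051), and its FDR was 0.193 by edgeR and 0.112 by DESeq2. SLA2, an adaptor that lowers receptor levels, had 23.0 to 43.5 CPM and differed by 0.018 per kg (SE 0.0059), or by 0.0071 with all 20 cows, and its FDR in 19 cows was 0.194 by edgeR and 0.100 by DESeq2. PTPRC, the phosphatase CD45, is counted in this list although it activates LCK. It had 4465 to 5152 CPM and a slope of 0.0024 (FDR of 0.575 with edgeR), and PTPN6 had a slope of 0.0024 (FDR of 0.832). The 5 genes with an unadjusted p below 0.05 are 27.8% of the list, beside 13.9% of all genes.

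Downstream of the receptor, 14 of 24 slopes were positive and 3 genes (12.5%, beside 13.9% of all genes) had an unadjusted p below 0.05. BCL10, a scaffold of the pathway to NF-kappa B, had 25.8 to 36.6 CPM and differed by 0.012 per kg on the log2 scale (SE 0.0037), and its FDR was 0.175 by edgeR and 0.0748 by DESeq2. NFATC3, a calcium-dependent transcription factor, had a slope of 0.0098 (FDR of 0.183 with edgeR), and the calcium channel gene ORAI1 one of 0.016 (FDR of 0.223). The r of BCL10, NFATC3 and ORAI1 with the CD3 mean was -0.07, 0.18 and 0.003. NFATC2 had a slope of 0.0024 (FDR of 0.803 with edgeR). Of the ligands, ALCAM, which binds CD6, had 37.9 to 101 CPM with a median of 50.3 CPM. It differed by 0.030 per kg (SE 0.0087), and its FDR was 0.162 by edgeR and 0.0487 by DESeq2. Its r with the CD3 mean was 0.23. CD48 and CD58, which bind CD2, had slopes of 0.00095 and 0.00030 (FDR of 0.929 and 0.971 with edgeR). SECTM1, a ligand of CD7, did not pass the count filter.

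Coreceptors and costimulatory receptors had 6 positive slopes among 10, where 46.6% of all genes were positive. None had an unadjusted p below 0.05 with edgeR, beside 13.9% of all genes, a share at which a list of 10 would hold few. CD4 had a slope of -0.0058 per kg (FDR of 0.614 with edgeR), CD27 -0.0045 (FDR of 0.660), TNFRSF4 0.011 (FDR of 0.387) and CD40LG 0.012 (FDR of 0.513). TNFRSF4 was 0.0039 with all 20 cows, and CD40LG 0.0049 once the 56 kg calf's cow was left out. The 10 transcription factors likewise held no gene with such a p, beside the same 13.9% of all genes. ETS1 was at -0.0012 per kg with 936 to 1157 CPM, IKZF1 at 0.0041 and TOX at -0.0088 per kg. Of the receptor chain list, the constant gene segments of the alpha, beta and delta chains were not matched and are not analysed here. TARP, which came from the synonym TRGC1, had 0.827 to 5.02 CPM and a slope of 0.021 (FDR of 0.645 with edgeR).

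The same lists differed in how far they followed the CD3 mean over the 20 cows. Of all 16269 genes, 4.21% had an r above 0.5 and 3.78% one below -0.5. Among the 94 pathway genes these shares were 28.7% and 9.57%. The coreceptors of cytotoxic T cells, CD8A (0.74) and CD8B (0.65), had a higher r than CD4 (0.33), CD28 (0.30) or ICOS (0.38), though the differences were not tested. In that list of 10 genes 4 had an r above 0.5, and CD27 (0.62) and CD226 (0.60) were among them. The transcription factors GATA3 and TBX21 had 0.72 and 0.02, so these values do not separate T cell subsets. WC1, SOX13, a transcription factor of gamma delta T cells, and CD163L1 had 0.81, 0.57 and 0.49, and WC1-12 had 0.06. The 4 WC1 genes tested, whose reads may be shared because the family is near-identical in places, had BW slopes between -0.019 for WC1-8 and 0.021 for WC1-12 (FDR of 0.794 and 0.591 with edgeR). The slope of WC1-12 was 0.0043 with all 20 cows, 0.0092 once the 54 kg calf's cow was left out and 0.041 once the 30 kg calf's was. Downstream genes, many of which are used by all leukocytes, had a median r of -0.11, from -0.73 for ITPR1 to 0.66 for RASGRP1.

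**Figure D5:**
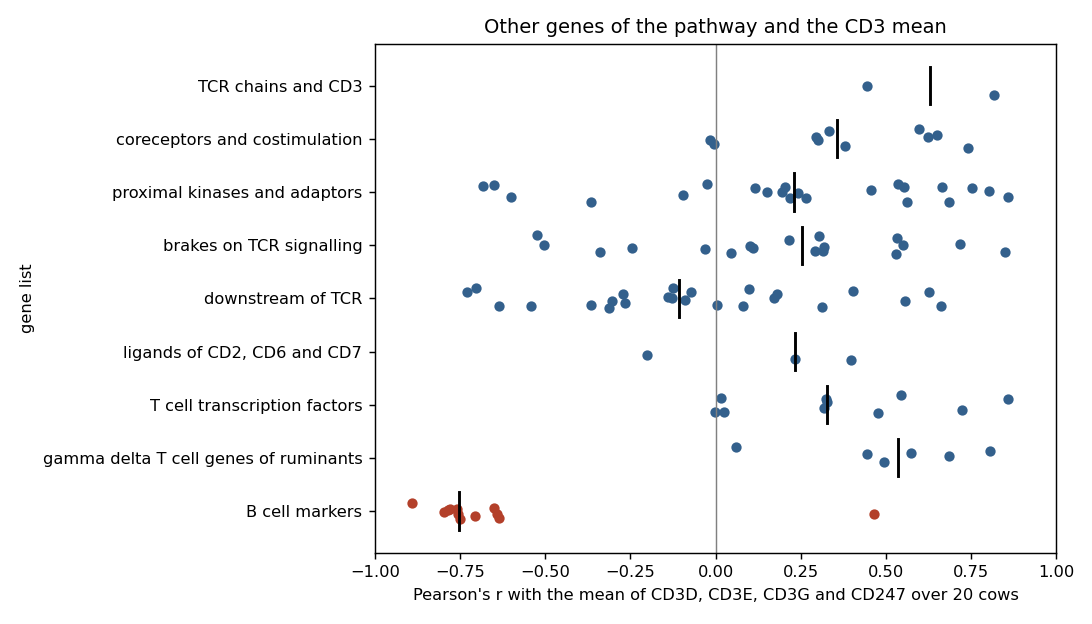
Pearson's r over 20 cows of each gene of the 8 pathway lists (blue) and of the B cell markers (red) with the mean log2 CPM of CD3D, CD3E, CD3G and CD247; black bars are the list medians and vertical scatter within a row has no meaning. All B cell markers but BLK lie below 0, and downstream genes spread from -0.73 to 0.66.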

How the data were processed

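Whole blood RNA of 20 cows was measured, with 1 library per cow. The authors deposited raw counts per Entrez gene, with no normalization, made with Trimmomatic (trimming), STAR 2.7.0b (alignment) and featureCounts of Subread 2.0.3 (counting). The kit is Truseq-stranded mRNA in the paper but SMARTer Stranded in the labels. The strand setting and how multi-mapping reads were handled are not given in the sources used here. Names came from a table of ARS-UCD2.0, in which all 37063 identifiers were found. As the authors aligned to another build, no coordinates are given.

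CPM were computed with TMM factors, and log2 CPM with a prior count of 2, for genes reaching 10 counts in 5 or more cows. Slopes on calf BW in 19 cows came from the quasi-likelihood test of edgeR 4.0.16 (R 4.3.3), with p-values adjusted over all 16206 genes by the Benjamini-Hochberg method (FDR) and 95% intervals from the fit. Alternatives were voom (limma 3.58.1), DESeq2 1.42.0, BW ranks, fits with a marker score added, each cow left out, all 20 cows, and changed filters or size factors. The fit was also run on simulated counts with slopes larger than any of the 10 genes had. That run does not show whether slopes as small as theirs would be found. The 10 genes and the lists were chosen with earlier results of these data known. Genes named outside the 10 are, per pathway list, the 2 with the smallest p and the 2 with the highest level, and the genes most correlated with the CD3 mean (5) or with a single gene (3), some of which are not reported here. UBASH3B, CBL, CBLB, ORAI1, LAT, CD28, ICOS, CD8A, CD8B, CD226, GATA3, TBX21, WC1, WC1-8, ITPR1, RASGRP1, SECTM1, TNFRSF21 and the marker genes were named after their values were seen. The cows are separate animals. Python 3.11.15, numpy 2.4.6, pandas 2.3.3, scipy 1.17.1 and matplotlib 3.10.9 were also used.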

Additional observations from a re-analysis of the deposited data

How the results depend on the processing

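In each of the alternatives run, including those with 1 cow left out, 0 of the 10 genes had an FDR below 0.05. An unadjusted p below 0.05 was found for 1 of the 10 with all 20 cows (CD7) and for 0 in every other fit. Over all genes, the count with an FDR below 0.05 was 0 with edgeR, but 189 with DESeq2, 147 for genes with any count, 4 with all 20 cows, 15 with the T cell score as a covariate, 35 when the cows of the 32 and 47.4 kg calves were also left out (a choice made after seeing the data), and between 0 and 34 with 1 cow left out (34 when it was that of the 32 kg calf). Slopes near 0 changed sign in some fits, and the cause was not tested. These were CD3D at -0.0015 with all 20 cows, CD3G at -0.00023 with the neutrophil score, CD247 at 0.00011 for genes with any count, and, with the T cell score, CD3E at 0.00026, CD247 at 0.0027 and CD6 at 0.0029. Without the cows of the 32 and 47.4 kg calves CD3E was 0.00011, CD247 0.0032 and CD6 0.0029. With 1 cow left out the slopes ran from -0.000033 to 0.0071 for CD3D, -0.0057 to 0.00090 for CD3E, -0.0014 to 0.0055 for CD3G, -0.0023 to 0.0041 for CD247, -0.0019 to 0.0047 for CD2, -0.0032 to 0.0045 for CD6 and -0.0046 to 0.00061 for LCK, and those of CD5, CD7 and ZAP70 stayed negative. The median r of the 45 pairs was between 0.67 and 0.78 with 1 cow left out. No paired analysis was possible because all cows form 1 group. The lowest count of the 10 genes in a cow was 255, and how far depth limits the slopes was not tested.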
